A study of Mus musculus with 6 samples.

Results

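The 10 genes described here encode receptors and enzymes of the endocannabinoid system: Cnr1, Cnr2, Napepld, Abhd4, Faah, Naaa, Dagla, Daglb, Mgll and Abhd6. They were chosen by name as the rows of the deposited table whose gene symbol equals one of these symbols, and all 10 were found among the 21740 genes with a single symbol, each with 1 row. The arrays were made from uterine luminal epithelium, the sheet of cells facing the lumen where the embryo attaches, of wild-type mice of a mixed C57BL6/129svj background. The mice were virgin females of 2 to 4 months, mated naturally. Gestation day 3.5 (D3.5) is before implantation, in uteri that held blastocysts, and gestation day 4.5 (D4.5) is after it, in uteri with implantation sites. Each day had 3 one-colour Affymetrix arrays, of epithelial sheets freed with dispase and scraping, and it is not stated if different animals gave the arrays of a day. The p-values therefore cover only the variation among these arrays, which may be technical.

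Endocannabinoids are lipids that cells make on demand from membrane phospholipids and that act on the G protein-coupled receptors CB1 (Cnr1) and CB2 (Cnr2). Anandamide is released from N-acylphosphatidylethanolamine by Napepld or through Abhd4, and is broken down by Faah and, in acidic compartments, by Naaa. The other main ligand, 2-arachidonoylglycerol, is made from diacylglycerol by Dagla and Daglb and hydrolysed by Mgll and Abhd6. In the mouse, the blastocyst carries CB1, and the timing of implantation is known to be sensitive to the amount of anandamide in the uterus.

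Levels are given as log2(intensity + 16) following quantile normalization, with the mean ± SD of a day (n = 3 arrays). A change is the log2 fold change from D3.5 to D4.5 with its SE, fitted with limma, and a positive change is a higher level on D4.5. Adjusted p-values are Benjamini-Hochberg values over all 21740 genes. Levels of different genes come from different probes and are not compared with each other. For a reference, 1343 chemosensory receptor genes, which have no known use in the uterine epithelium, had 95% of their levels under 6.55 on D3.5 and under 6.36 on D4.5, and 95% of their changes lay between -0.59 and 0.33. Of these genes 403 (30.0%) passed the adjusted p, so that a small change at such a level is not set apart by passing it. A gene at or under the limit of a day is described as at the level of receptor genes.

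All 9 markers of the epithelium that were looked up (such as Krt8, Krt18, Cdh1 and Epcam) exceeded these limits on both days. So did 9 of 10 stromal markers, and the mean level of the stromal list was 7.82 to 8.30 on the D3.5 arrays and 7.27 to 8.53 on the D4.5 arrays, highest in D4.5 replicate 1 and lowest in D4.5 replicate 3. Between the days, 4 of 9 epithelial, 4 of 5 gland, 1 of 10 stromal, 1 of 5 smooth muscle, 2 of 7 leukocyte and 2 of 4 embryo markers passed limma's adjusted p, beside 44.4% of all genes. Of the gland markers 2 rose, among them Spink3 (1.53), and 2 fell, and both embryo markers fell. No endothelial (of 6) or blood (of 2) marker passed, at the adjusted or at an unadjusted p of 0.05. The part of these cell types in the changes below was not tested. D3.5 replicate 1 correlated with the other D3.5 arrays at 0.981 to 0.982 across genes, while replicates 2 and 3 correlated at 0.993, and several genes below differ in that array. In tissue RNA such as this, fewer cells of a type and less RNA per cell cannot be told apart.

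Of the 10 genes, 4 rose (Mgll, Abhd6, Napepld and Daglb), 3 fell (Abhd4, Dagla and Cnr1) and 3 did not pass (Faah, Naaa and Cnr2). Over all genes 44.4% passed the same adjusted p, 18% upward and 26.4% downward. With at least 2-fold required, 2 of the 10 passed, Mgll and Abhd6, both higher on D4.5, beside 5.5% of all genes (3.04% higher and 2.46% lower). The median change of the 10 genes was 0.01, and that of all genes was -0.07. The arrays of the days did not overlap for 9 of the 10 genes, the exception being Naaa, beside 58.6% of all genes. Among the 10 genes, both for enzymes that hydrolyse 2-arachidonoylglycerol rose, whereas neither of those for enzymes that hydrolyse anandamide passed the test. This contrast was not itself tested, and Faah passed with median centring (0.42, adjusted p = 0.00367). Of 4 further hydrolases described below 1 rose and 3 fell.

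The starts of the genes with the 3 largest rises are shown because they are the members that moved most in 1 direction. Each sequence is the 250 bases before the most upstream start that RefSeq lists for the gene (build GRCm38.p6), written 5′ to 3′ on the strand of the gene, with matches to any of 7 searched motifs in capitals. The sequence of Mgll is chr6:88724162-88724411 on the plus strand, that of Abhd6 is chr14:8002638-8002887 on the plus strand and that of Napepld is chr5:21701623-21701872 on the minus strand.
Mgll: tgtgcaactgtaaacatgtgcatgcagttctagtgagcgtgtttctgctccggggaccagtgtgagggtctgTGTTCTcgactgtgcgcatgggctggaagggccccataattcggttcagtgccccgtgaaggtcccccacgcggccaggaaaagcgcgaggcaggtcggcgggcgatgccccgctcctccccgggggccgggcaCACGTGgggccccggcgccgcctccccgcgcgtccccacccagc
Abhd6: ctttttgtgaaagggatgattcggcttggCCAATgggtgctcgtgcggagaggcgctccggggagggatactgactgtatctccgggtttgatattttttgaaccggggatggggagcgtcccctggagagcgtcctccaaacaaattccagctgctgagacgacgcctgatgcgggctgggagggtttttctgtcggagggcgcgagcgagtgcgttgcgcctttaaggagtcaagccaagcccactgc
Napepld: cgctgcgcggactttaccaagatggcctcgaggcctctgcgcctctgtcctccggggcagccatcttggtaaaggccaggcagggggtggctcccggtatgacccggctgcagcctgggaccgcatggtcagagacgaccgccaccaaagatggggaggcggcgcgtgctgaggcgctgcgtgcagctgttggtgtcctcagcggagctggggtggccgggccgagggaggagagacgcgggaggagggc
The letters searched, on both strands, were those of the GC box (GGGCGG), of the box named after its letters CCAAT, of the TATA box (TATAAA) and of the E-box (CACGTG). Also searched were a half-site of the kind that the progesterone receptor binds (TGTTCT), a half-site of other nuclear receptors (AGGTCA) and a site of STAT factors (TTCNNNGAA). The window of Mgll held 1 CACGTG, which 6.04% of 27025 promoter windows of this length hold, and 1 TGTTCT, which 16.1% hold. That of Abhd6 held 1 CCAAT (34.5% of windows), and that of Napepld held no match. No 2 of these matches overlapped, and no motif was shared by the 3 windows. All 3 were rich in G and C, with 68.0% in Mgll, 58.4% in Abhd6 and 69.6% in Napepld, beside a median of 52.0% over all windows. They held 23, 18 and 21 CG dinucleotides, in the same order, beside a median of 6. Of the 10 genes 9 were in the promoter table. The window of Daglb, the fourth gene that rose, had 49.2% G and C and 9 CG dinucleotides. Among the 5 of these that fell or did not pass, the G and C content ran from 51.6% (Cnr2) to 79.2% (Cnr1), on both sides of these values. In the same 5 windows the CG dinucleotides ran from 3 (Cnr2) to 36 (Cnr1), with 20 in Abhd4, which fell. Faah, which did not pass, held 2 TGTTCT, and Abhd4 held 2 CCAAT.

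Mgll encodes monoglyceride lipase, the main enzyme that cleaves 2-arachidonoylglycerol into arachidonic acid and glycerol. Its deposited intensity was 139.1, 148.2 and 143.5 on D3.5 and 540.5, 704.2 and 516.3 on D4.5 in replicates 1, 2 and 3. Every D4.5 array was thus well above every D3.5 array. After normalization the level went from 7.15 ± 0.09 to 9.21 ± 0.23, a 4.16-fold rise (log2 change 2.06 ± 0.12, adjusted p = 3.2e-05). On D4.5 replicates 1, 2 and 3 the mean stromal marker level was 8.53, 7.93 and 7.27, and Mgll stood at 9.08, 9.47 and 9.07. The part of stromal cells in its rise was not tested. Over 16 alternative settings the change of Mgll lay between 1.75 and 2.33 and the adjusted p did not exceed 0.000292.

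Abhd6 encodes a membrane-bound hydrolase that also cleaves 2-arachidonoylglycerol, on the inner face of the cell membrane. Its intensity was 157.6, 242.4 and 240.0 on D3.5 and 381.2, 441.4 and 427.8 on D4.5. D3.5 replicate 1 was the lowest of the 6 arrays, and the days did not overlap. The level went from 7.70 ± 0.37 to 8.76 ± 0.13, a 2.09-fold rise (1.07 ± 0.18, adjusted p = 0.00272). Without D3.5 replicate 1 the change was 0.88, which is under 2-fold. It was also under 2-fold in the values as deposited (0.94), with a constant of 64 (0.91) and with array weights (0.94). The gene still passed the adjusted p in each case (range over the alternatives 0.000229 to 0.0143).

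**Figure D1:**
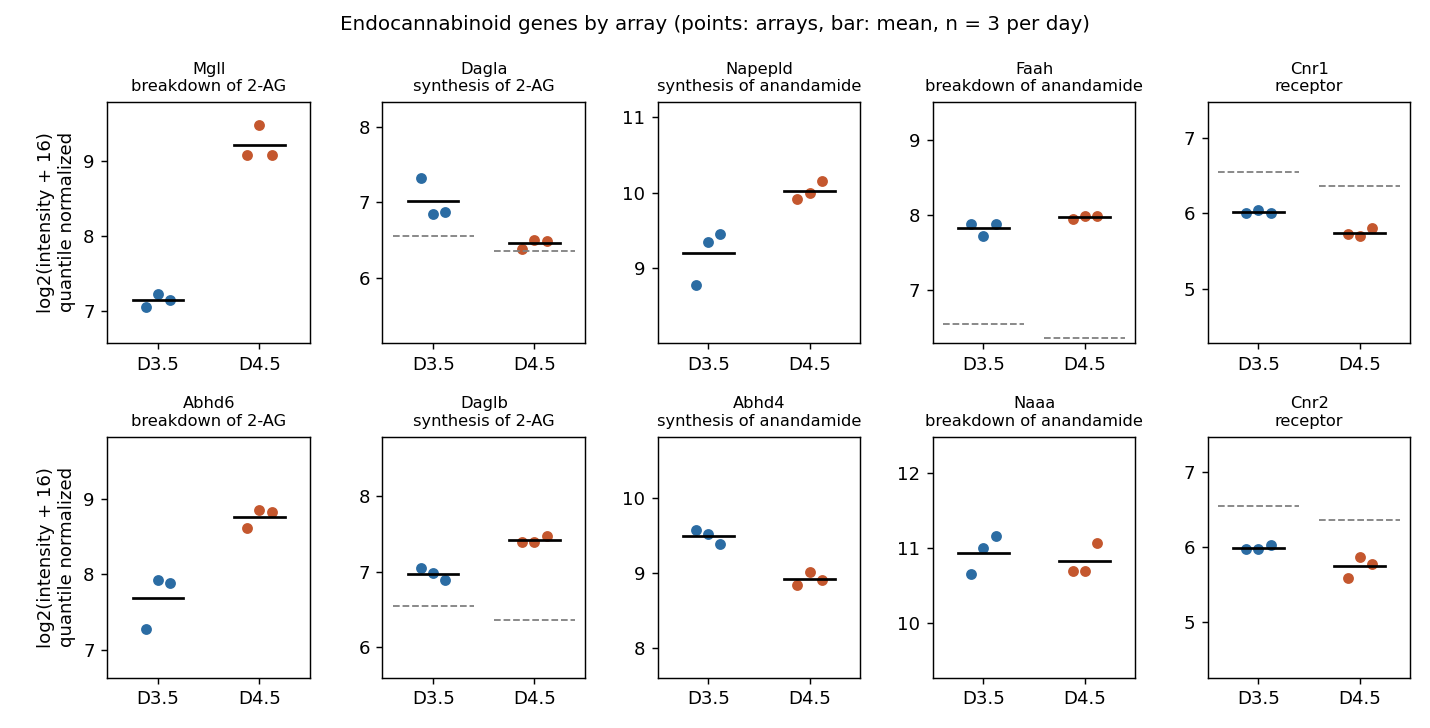
Level of each gene, log2(intensity + 16) after quantile normalization, on the 3 D3.5 and 3 D4.5 arrays, with a bar at the mean of a day; each panel spans the same number of log2 units, and the dashed lines mark the level under which 95% of chemosensory receptor genes lie (6.55 on D3.5 and 6.36 on D4.5) where it falls within the panel. Mgll stands between 7.06 and 7.23 on D3.5 and between 9.07 and 9.47 on D4.5, and both receptor genes lie under the dashed lines.

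The diacylglycerol lipases, which make 2-arachidonoylglycerol, moved in opposite directions. Dagla, the form known for its role at synapses, had an intensity of 162.8, 112.3 and 117.7 on D3.5 and of 52.95, 61.15 and 60.21 on D4.5. All D4.5 arrays were lower, and D3.5 replicate 1 was the highest. Its level went from 7.01 ± 0.27 to 6.46 ± 0.07, just above the level of receptor genes on D4.5 (log2 change -0.56 ± 0.13, adjusted p = 0.0131). This change lies within the central 95% of the changes of receptor genes, and in the values as deposited it was -0.97.

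Daglb, the form known from macrophages and other tissues outside the nervous system, had an intensity of 138.8, 123.8 and 119.0 on D3.5 and of 140.9, 137.0 and 142.3 on D4.5. These deposited values overlap between the days. After normalization they did not, and the level went from 6.97 ± 0.08 to 7.42 ± 0.05 (0.44 ± 0.07, adjusted p = 0.00268), a change outside the range of receptor genes. The call of Daglb rests on the scaling of the arrays, since in the values as deposited the change was 0.13 with an adjusted p of 0.181 (range over the alternatives 0.000353 to 0.181).

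Napepld encodes the phospholipase D that releases anandamide and other N-acylethanolamines in 1 step. Its intensity was 389.2, 659.0 and 721.8 on D3.5 and 986.2, 1034 and 1125 on D4.5. D3.5 replicate 1 was again the lowest array, and every D4.5 array was above every D3.5 array. The level went from 9.19 ± 0.37 to 10.02 ± 0.11, a 1.78-fold rise (0.83 ± 0.17, adjusted p = 0.00747). The change was 0.63 without D3.5 replicate 1 and 1.29, past 2-fold, when the arrays were median centred instead of quantile normalized.

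Abhd4, a lysophospholipase that acts on N-acylphosphatidylethanolamine in a second route to anandamide, was lower on D4.5. Its intensity was 646.8, 749.9 and 691.3 on D3.5 and 452.5, 501.4 and 456.4 on D4.5, with no overlap. The level fell from 9.50 ± 0.09 to 8.92 ± 0.08, or 1.49-fold (-0.58 ± 0.08, adjusted p = 0.00131). This lies just inside the range of changes of receptor genes, though Abhd4 exceeded the level limits of those genes on both days. With median centring the change of Abhd4 was -0.12 and did not pass (adjusted p = 0.333, range over the alternatives 0.000698 to 0.333).

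Faah encodes the fatty acid amide hydrolase that breaks down anandamide. Its deposited intensity was 224.5, 208.8 and 239.6 on D3.5 and 225.5, 224.7 and 219.5 on D4.5, so that the D4.5 arrays lay within the range of the D3.5 arrays. After normalization they lay just above it, from 7.94 against at most 7.88. The level was 7.83 ± 0.09 and then 7.97 ± 0.02, with a change of 0.14 (95% confidence interval -0.03 to 0.31, adjusted p = 0.149). The direction of Faah depended on the scaling, as the change was -0.0044 in the values as deposited and 0.42, past the threshold, with median centring.

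Naaa encodes the acid amidase of lysosomes, which prefers palmitoylethanolamide but also cleaves anandamide. Its intensity was 1282, 2110 and 2383 on D3.5 and 1710, 1740 and 2188 on D4.5, with overlapping days. The level was 10.94 ± 0.26 and 10.82 ± 0.21, a change of -0.12 with an interval of -0.48 to 0.24 (adjusted p = 0.564). Its sign also turned with the scaling (0.43 after median centring and 0.0044 as deposited, neither past the threshold). With array weights, Naaa passed at -0.30 (adjusted p = 0.0443, range over the alternatives 0.0443 to 0.987).

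Neither cannabinoid receptor gene rose above the level of chemosensory receptor genes on either day. Cnr1, which encodes CB1, had an intensity of 66.25, 58.85 and 59.00 on D3.5 and of 28.54, 28.48 and 31.57 on D4.5. In the deposited values the D4.5 arrays were all lower, and there the median change of all genes was -0.40, against -0.07 after normalization. The normalized level went from 6.02 ± 0.02 to 5.74 ± 0.05 (-0.28 ± 0.06, adjusted p = 0.0111). Of the chemosensory receptor genes 30.0% passed as well, and without D4.5 replicate 2 the adjusted p of Cnr1 was 0.0509 (range over the alternatives 0.000211 to 0.0509).

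Cnr2, which encodes CB2, the receptor of immune cells, had an intensity of 63.62, 54.79 and 60.00 on D3.5 and of 24.49, 34.02 and 30.54 on D4.5. Its level was 5.99 ± 0.04 and 5.74 ± 0.15, with a change of -0.25 (interval -0.45 to -0.04) that did not pass (adjusted p = 0.0545, range over the alternatives 0.000574 to 0.144). The changes of both receptor genes lie inside the range of the chemosensory receptor genes. They depended on the constant and the scaling, from -0.15 with a constant of 64 to -0.76 in the values as deposited for Cnr1, and from -0.13 to -0.73 for Cnr2. Of the 7 leukocyte markers Csf1r (0.76) and Emr1 (0.61) rose and the other 5 did not pass, with changes from -0.34 (Lyz2) to 0.22 (Itgam). Their part in the value of Cnr2 was not tested.

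**Figure D2:**
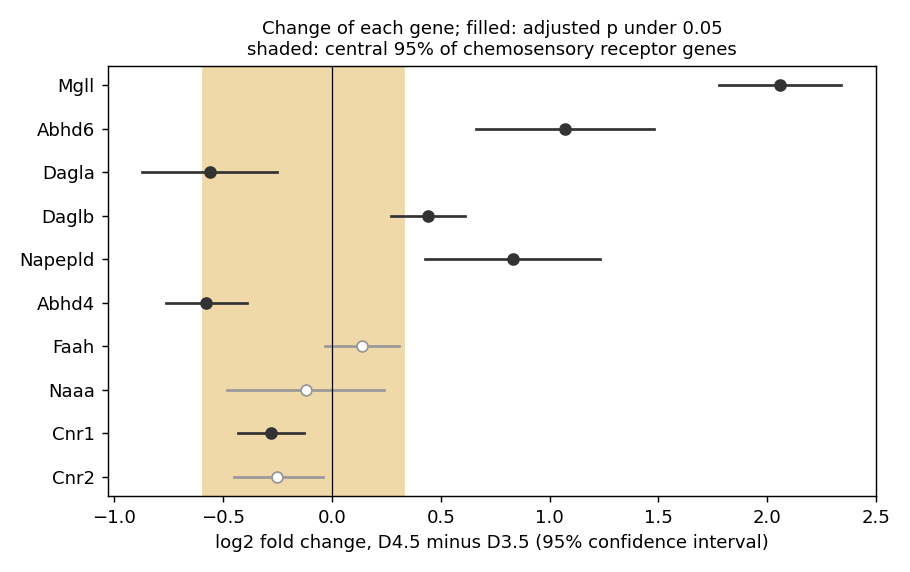
Log2 fold change from D3.5 to D4.5 of each gene with its 95% confidence interval; filled points passed an adjusted p of 0.05, and the shaded band holds the central 95% of the changes of chemosensory receptor genes (-0.59 to 0.33). Mgll, Abhd6, Napepld and Daglb lie to the right of the band, and the other 6 points lie inside it.

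The balance between making and breaking down each lipid was compared as the ratio of 2 genes within an array, which leaves out most of the difference in scaling between the arrays. Only the change of such a ratio between the days can be read, since its size on a day depends on the probes. In all 7 pairs examined the arrays of the days did not overlap, as was already the case for 9 of the 10 genes taken singly and for 58.6% of all genes. An exact two-sided permutation test of 3 against 3 arrays gave p = 0.1 for each pair, which is the smallest it can give, and the value adjusted over the 7 pairs is also 0.1, so that none could reach 0.05.

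The largest of these changes was that of Dagla against Mgll, which fell from -0.13 ± 0.35 to -2.75 ± 0.20 on the log2 scale, a 6.13-fold lower ratio of synthesis to breakdown transcripts for 2-arachidonoylglycerol. Mgll alone changed by 2.06, and the -0.56 of Dagla lay inside the range of changes of receptor genes. For Daglb against Mgll the ratio was -0.01, -0.26 and -0.26 on D3.5 and -1.69, -2.08 and -1.6 on D4.5, or 3.06-fold lower. Daglb against Abhd6 was 1.54-fold lower, with D3.5 replicate 1 (-0.22) apart from replicates 2 and 3 (-0.95 and -0.99). Each of these ratios was lower on D4.5 under all 11 alternatives, and their changes ranged from -2.88 to -2.13, from -1.78 to -1.42 and from -0.81 to -0.38. Most of these alternatives could not or could hardly turn the direction of a ratio whose days did not overlap. The ratio of Dagla to Daglb was 2.0-fold lower (change -1.0, range over the alternatives -1.15 to -0.72).

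For anandamide the ratios moved both ways. Napepld against Faah was 0.89, 1.63 and 1.57 on D3.5 and 1.98, 2.02 and 2.16 on D4.5, a 1.61-fold higher ratio (change 0.69, range over the alternatives 0.45 to 0.86). Napepld against Naaa rose from -1.75 ± 0.12 to -0.80 ± 0.11, or 1.93-fold, and kept a change of 0.85 to 1.00 over the alternatives. By contrast, Abhd4 against Faah was 1.65-fold lower on D4.5 (change -0.72, range -0.80 to -0.55). The pairs share genes and arrays and are therefore not independent of each other.

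**Figure D3:**
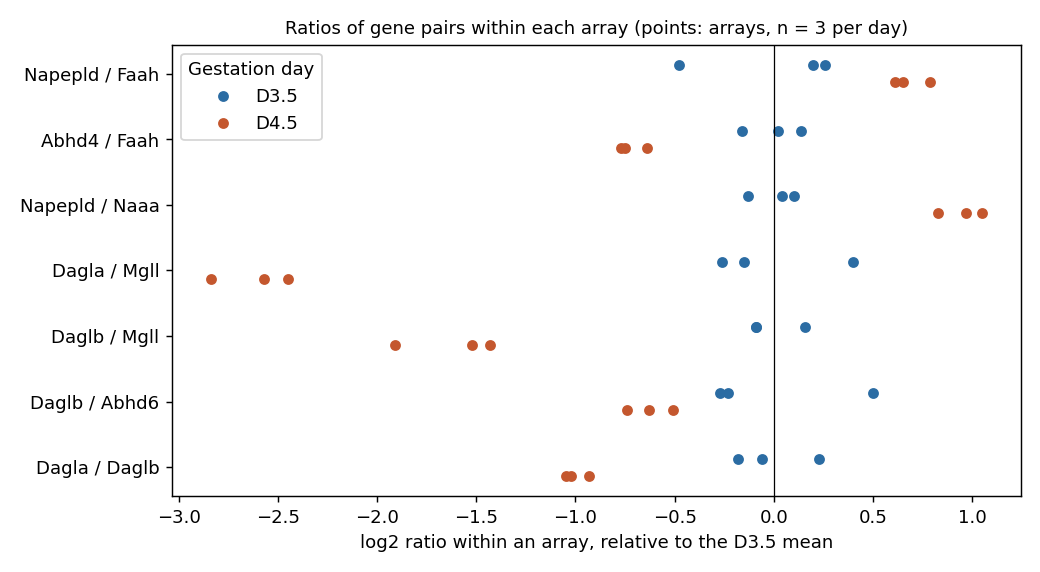
Log2 ratio of 2 genes within each array, minus the mean ratio of the D3.5 arrays, for 7 pairs; blue points are D3.5 arrays and orange points are D4.5 arrays (3 each). The ratios of Dagla and of Daglb to Mgll lie furthest from their D3.5 values, and the days do not overlap in any pair.

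**Figure D4:**
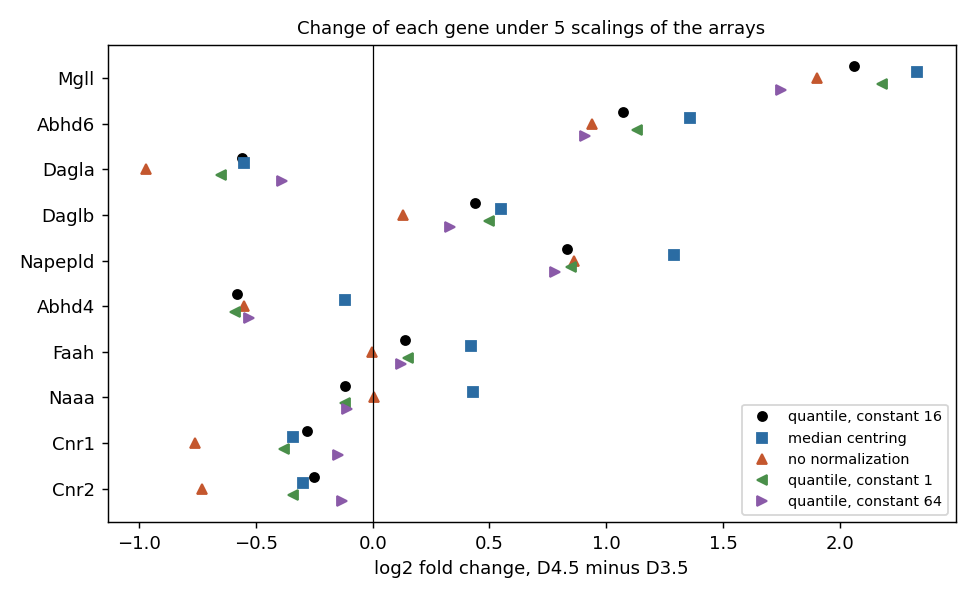
Log2 fold change of each gene with quantile normalization and a constant of 16, with median centring, with the values as deposited, and with constants of 1 and 64. Mgll (1.75 to 2.33) and Abhd6 keep their rise under each of the 5 settings, while Faah and Naaa lie on both sides of 0.

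A list of 43 other genes of endocannabinoid metabolism and response was examined in the same fit. Of these, 42 were found under the symbol itself and 1, Abhd16a, under its older name Bat5. Of the 43, 9 rose, 17 fell and 17 did not pass, so that 60.5% passed beside 44.4% of all genes, and the median change was -0.16. Their count depended on single arrays and on scaling. It went from 26 to 17 without D3.5 replicate 3 and to 18 without D3.5 replicate 2 or without D4.5 replicate 2, and with median centring 12 rose and 11 fell, against 6 and 28 in the values as deposited. The level of 9 of the 43 was that of chemosensory receptor genes on D3.5 and on D4.5.

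Among the 9 genes of other synthetic routes 1 rose and 5 fell, beside 18% and 26.4% of all genes. None of the small groups of this list was tested against these shares. Gde1, the glycerophosphodiesterase that completes the route of Abhd4, fell 2.13-fold, from 9.75, 9.26 and 9.38 on D3.5 to 8.38, 8.39 and 8.33 on D4.5 (-1.09 ± 0.12, adjusted p = 0.000561, and -0.67 with median centring). Abhd4 and Gde1, which act one after the other, were thus both lower on D4.5, though Abhd4 did not pass with median centring (-0.12). The gene of this group that rose was Gdpd3 (0.56 ± 0.11, adjusted p = 0.00647), from the level of receptor genes to 6.50 on D4.5, where the limit was 6.36. In the values as deposited Gdpd3 did not pass (0.07), and Gdpd1 did not pass in the main fit (-0.04 ± 0.07). Pla2g16, now named Plaat3, a phospholipase of the family that includes N-acyltransferases, changed by -0.64 ± 0.11 (adjusted p = 0.00311, and -1.02 in the values as deposited).

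Of 8 phospholipases that cleave membrane phospholipids 5 rose and 1 fell, beside 18% and 26.4% of all genes. Plcg2, a phospholipase C that yields diacylglycerol, rose 2.71-fold, from 6.76 ± 0.09 to 8.20 ± 0.08 (1.44 ± 0.08, adjusted p = 2.4e-05). Plcb4 (0.85 ± 0.10) and Plcb1 (0.56 ± 0.07) of the phospholipase C beta family rose too. Plcb1 went from the level of receptor genes to 6.40 on D4.5, just above the limit of 6.36. Its change was 0.33 with a constant of 64 and 0.07, without a call, in the values as deposited. The phospholipase A1 genes Ddhd1 (0.98 ± 0.10) and Ddhd2 (0.96 ± 0.09) rose by similar amounts.

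Among 4 further hydrolases 1 rose and 3 fell, beside 18% and 26.4% of all genes. The gene that rose was Abhd12 (0.23 ± 0.07, adjusted p = 0.0238), which did not pass in the values as deposited (0.17). Lipe, the hormone-sensitive lipase that cleaves diacylglycerol, changed by -0.82 ± 0.10 (adjusted p = 0.000875). Lipe has 2 rows, which cannot be paired between the days, and the row with the highest mean in place of their average gave -1.63, so the size of its change is uncertain. Abhd16a, a lipase that also takes monoacylglycerol, changed by -0.61 ± 0.10, which was -0.21 and not past the threshold with median centring. Asah1 changed by -0.23 ± 0.07 (adjusted p = 0.0255). It did not pass with median centring (0.30, the opposite sign) or in the values as deposited (-0.12). Of 5 genes for enzymes that oxidise arachidonic acid or endocannabinoids 1 rose and 3 fell, beside the same shares of all genes. Cyp2j6, a cytochrome P450 of the epoxygenase family, rose from the level of receptor genes (1.10 ± 0.12, adjusted p = 0.000458). Its change was 1.28 with a constant of 1, 0.76 with 64 and 0.72 in the values as deposited. The lipoxygenase gene Alox12 changed by -0.80 ± 0.13, and Alox15 by -1.23 ± 0.30, with D4.5 arrays at 11.05, 10.13 and 11.49. Neither lipoxygenase passed with median centring, at -0.49 for Alox12 and -0.72 for Alox15. Ptgs2, the other gene of this group that fell, changed by -0.83 ± 0.21 (adjusted p = 0.0161). It did not pass with median centring either (-0.31).

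Of 7 other receptors 1 fell and 6 did not pass, and of 4 lipid carriers 2 fell and 2 did not pass. Over all genes 18% rose and 26.4% fell. Among 6 partners of the receptors 1 rose and 2 fell, and the changes were large for a pair of G protein alpha subunits of the inhibitory class to which CB1 and CB2 couple. Gnao1 stood at 8.34, 8.31 and 8.59 on D3.5 and at 6.22, 6.35 and 6.33 on D4.5, a fall to the level of receptor genes (-2.11 ± 0.09, adjusted p = 1.23e-05). The size of this change depends on the constant added, at -2.36 with 1 and -1.61 with 64. Gnai1 stood at 6.30, 7.04 and 6.26 on D3.5 and at 7.86, 8.0 and 9.36 on D4.5, a rise from the level of receptor genes with a wide spread (1.87 ± 0.40, adjusted p = 0.00841). Its change was 2.07 with a constant of 1 and 1.46 with 64. Their relatives Gnai2 and Gnai3 did not pass, with changes of -0.11 ± 0.13 and 0.10 ± 0.07, but both passed with median centring, at 0.40, the opposite sign, for Gnai2 and 0.56 for Gnai3.

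**Figure D5:**
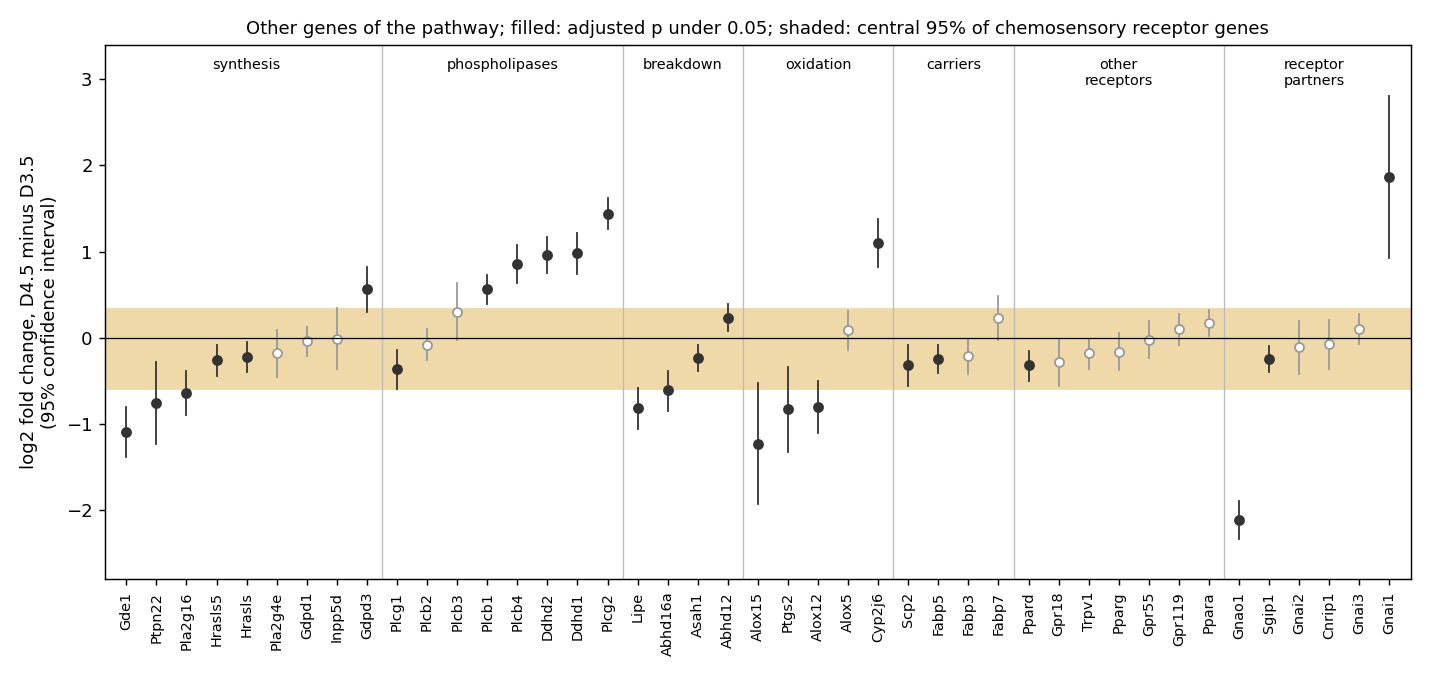
Log2 fold change from D3.5 to D4.5 with its 95% confidence interval for 43 other genes of the pathway, grouped by role; filled points passed an adjusted p of 0.05 and the shaded band holds the central 95% of chemosensory receptor genes (-0.59 to 0.33). Gnao1 (-2.11), Gnai1 (1.87) and Plcg2 (1.44) lie furthest from 0.

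The genes whose values over the 6 arrays, after subtraction of the mean of each gene, were nearest to those of Mgll were Angpt2, Sh2d4b and Gpr56, with root mean square differences of 0.062, 0.087 and 0.092 log2 units. Their changes were 2.00, 1.95 and 2.23. Nearest to Abhd6 were Eif2b3 (0.065), Pcyox1 (0.072) and Sepw1 (0.074), with changes of 1.05, 1.19 and 1.09. This likeness is a description over 6 arrays of 2 days and rests mostly on the difference between the days.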

How the data were processed

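The deposited table holds linear intensity values of 6 one-colour Affymetrix arrays that the authors made from biotin-labelled cRNA of 1 µg total RNA, per the labels' protocols. How the scanned images became these values (software, summary method, build) is not given in the sources used here. Beside them, the authors' deposited day means, SDs (intensity), p-value and fold change (a ratio of the day means) were not used. A second deposited table gave the same intensities for all 10 genes. No detection calls were used. Arrays have no sequencing depth, and their number limits the precision.

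Of 35556 rows, 25070 had 1 symbol (21740 genes). After the addition of 16, values were turned to log2, all rows were quantile normalized together, and rows of a symbol were averaged. Rows that share a symbol are not paired between days in this table, but each of the 10 genes has 1 row, and in windows of 41 rows around them the day means correlated at 0.88 to 0.97, against at most 0.62 with a shift of 1 or 2 rows. The days were compared in R 4.3.3 by limma 3.58.1 (lmFit, then eBayes), two-sided, at a Benjamini-Hochberg adjusted p of 0.05, in a fit checked on simulated data. Pairs of genes were compared within arrays with an exact permutation test (scipy 1.17.1).

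The 10 genes and the lists were chosen with earlier results of these data known. The genes named are the 10, the listed pathway genes past 2-fold and up to 4 others per direction with the smallest p, and the 3 genes nearest to each of Mgll and Abhd6. Gnai2, Gnai3, Gdpd1, Gdpd3, Abhd12, Asah1 and Ptgs2 were added after their values were seen. Alternatives were median centring, no normalization, constants of 1 and 64, a block for the replicate number, array weights, a trended and robust eBayes, other row rules, the brighter part of the genes (above the median level), and the omission of each array.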

Additional observations from a re-analysis of the deposited data

How the results depend on the processing

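The count of the 10 genes that passed the adjusted p was 5 to 8 over 16 alternatives, against 7. The lowest came from testing the genes above the median level alone, where Cnr1, Cnr2 and Dagla were not tested. The count past 2-fold was 1 in the values as deposited, with a constant of 64 and with array weights, 1 to 2 when an array was left out, and 3 with median centring. Of the pathway genes 17 to 25 passed when an array was left out, against 26, and of all genes 6562 to 9788, against 9651. Changes of Faah (-0.0044) and Naaa (0.0044) in the values as deposited and of Naaa with median centring (0.43) had the opposite sign to the normalized values. The cause was not tested. With no normalization 42.9% of the calls among the 10 genes were higher on D4.5, against 57.1%, and over all genes 15.6% were, against 40.6% (58.8% with median centring). With the replicate number as a block 7 of the 10 genes and 20 pathway genes passed, beside 8283 of all genes. Same-numbered arrays did not deviate together (correlations of -0.06, 0.056 and 0.096), so the numbers were not taken as pairs. The 7 ratios of gene pairs kept their direction under the 11 alternatives run for them, most of which could not or could hardly turn it. With 1 row per gene the choice of row changed nothing, and median centring and no normalization gave the same ratios. Leaving out 1 array could hardly turn a ratio whose days did not overlap. Arrays of D3.5 and D4.5 differ in their scale, and processing cannot be told apart from day. Cnr1 and Cnr2 are limited by their signal, which is that of genes this tissue is not known to use.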
